A study of Sus scrofa with 12 samples.

Results

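Solute carriers (SLC genes) are the membrane proteins that move sugars, amino acids, metals, ions, vitamins and nucleotides across the plasma membrane and the membranes of organelles. Their genes were followed in blastocysts of the pig (Sus scrofa) made by parthenogenesis, the development of an activated egg with no sperm. Genes were chosen by symbol, of the form of an SLC family member, and by measured level, with an FPKM of 1 or more in 3 or more of the 11 libraries. FPKM counts fragments per length of the gene and per mapped fragments, so levels of different genes are compared per length. Of 338 SLC genes with a row in the table of 31781 genes, 161 met this rule and 177 did not, 40 of the latter at 0 in every library. Of the 161, 159 are carriers and 2, SLC4A1AP and SLC7A6OS, share only the form of the name.

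The groups were blastocysts kept fresh (fresh control) and blastocysts vitrified under conditions that the titles call vitrification, vitrification I and vitrification II, with 3, 2, 3 and 3 libraries. Vitrification is cooling fast enough to form a glass instead of ice. All groups share the same parthenogenetic origin, and no strain, donor age, embryo day or cooling medium is given per group. Liquid helium appears in the title of the series, and no label ties it to a group. Each library was made with Smart-Seq2, an amplification method for very small inputs, and the labels name a blastocyst as source while the protocol describes sorted single cells. The p-values therefore reflect spread from library to library, which may be that between cells of 1 embryo.

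As background, the blastocyst is a fluid-filled sphere whose outer epithelium, the trophectoderm, takes up nutrients and pumps ions to keep the cavity open. Carriers at the plasma membrane set which sugars, amino acids and metals enter, those of the SLC30 and SLC39 families move zinc out of and into the cytosol, and those of the SLC25 family link the mitochondrial matrix with the cytosol. Members of the SLC35 family carry activated sugars into the Golgi and the ER (endoplasmic reticulum), where glycoproteins are made.

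The libraries differed in ways that run with the groups. The 13 mitochondrially encoded messages took 39.9 ± 3.44% of FPKM in fresh control (SD, n = 3), 45.3 ± 9.21% after vitrification (n = 2), 55.7 ± 10.6% in vitrification I (n = 3) and 19.6 ± 2.59% after vitrification II (n = 3). All 11 trophectoderm markers looked for were detected. Their summed FPKM was 10546 to 15920 in fresh control, 6857 to 17432 after vitrification, 2500 to 5754 in vitrification I and 14028 to 22423 after vitrification II. In this sum the vitrification I libraries lay below all others. A single marker reached 18589, so the sum follows the most abundant markers and does not show how each marker moved. Markers of the inner cell mass and epiblast (7 listed, 4 measured and detected) summed to 10.5 to 16.7, 12.2 to 26.5, 1.52 to 8.63 and 44.5 to 94.4 in the same order. The highest value of a single marker there was 81.6. Hypoblast markers (4 of 6 detected) summed to 26.9 to 42.5, 22.4 to 92.5, 16.6 to 47.5 and 37 to 71.9. Of 7 cumulus and granulosa cell markers listed, 5 were measured and 0 detected, with HAS2 at 0 everywhere. Of 7 leukocyte and erythroid markers LYZ and HBB were detected, and the list summed to 0.758 to 15.6, 0.728 to 13.2, 0.0211 to 2.9 and 1.64 to 4.91, with PTPRC and ALAS2 at 0. Of 6 oocyte markers GDF9 was detected, and the list summed to 3.85 to 13.4 over the 11 libraries, with ZP3 and NLRP5 at 0. Fewer cells of a type and less of an RNA per cell cannot be told apart in these libraries. What part the marker levels and the mitochondrial share have in the differences below was not tested.

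The members together held 0.820 ± 0.152%, 0.813 ± 0.0835%, 0.938 ± 0.0608% and 0.954 ± 0.0738% of FPKM (fresh control, vitrification, vitrification I, vitrification II). Per library of fresh control a mean of 118 ± 2.89 members reached an FPKM of 1. The vitrification libraries had 142 ± 11.3, those of vitrification I 125 ± 7.21 and those of vitrification II 142 ± 4.73. Of all genes in the table, 7117 ± 426, 8732 ± 1001, 7278 ± 499 and 8865 ± 260 reached it, in the same order of groups. Both counts were thus higher on average in vitrification and vitrification II than in the other groups. In every library 78 members reached an FPKM of 1. A few genes dominated, with the highest 3 holding 44.6% and the highest 10 holding 71.4% of all member FPKM. These 10 were the nucleoside carrier SLC28A3, the copper importer SLC31A1, the mitochondrial phosphate carrier SLC25A3, the mitochondrial ADP/ATP exchanger SLC25A5, SLC66A3 of the PQ-loop family, the thiamine carrier SLC19A3, SLC3A2, which is the shared heavy chain of several amino acid exchangers, the phosphate carrier SLC20A1, and the glucose carriers SLC2A2 and SLC2A1. 

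By substrate class the summed level kept a rough order, with a shift between the leading classes. The mitochondrial carriers summed to 1732, 2271 and 1863 FPKM in fresh control and led in those 3 libraries. In vitrification I they summed to 1118, 1317 and 761, while the metal carriers summed to 2075, 976 and 2063 and led in 2 of the 3 libraries. The metal sum was 581, 328 and 298 in fresh control, 705 and 627 in vitrification and 791, 899 and 626 in vitrification II. SLC31A1 alone made up most of the metal sum in vitrification I, and SLC25A3 with SLC25A5 most of the mitochondrial one. The sum of the inorganic ion carriers was 67.9, 31.8 and 46.8 in fresh control and 66.4 and 144 in vitrification. It was 166, 137 and 202 in vitrification I and 183, 225 and 279 in vitrification II. SLC20A1 was the highest member of this class and alone made up most of its sum in vitrification I.

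**Figure D1:**
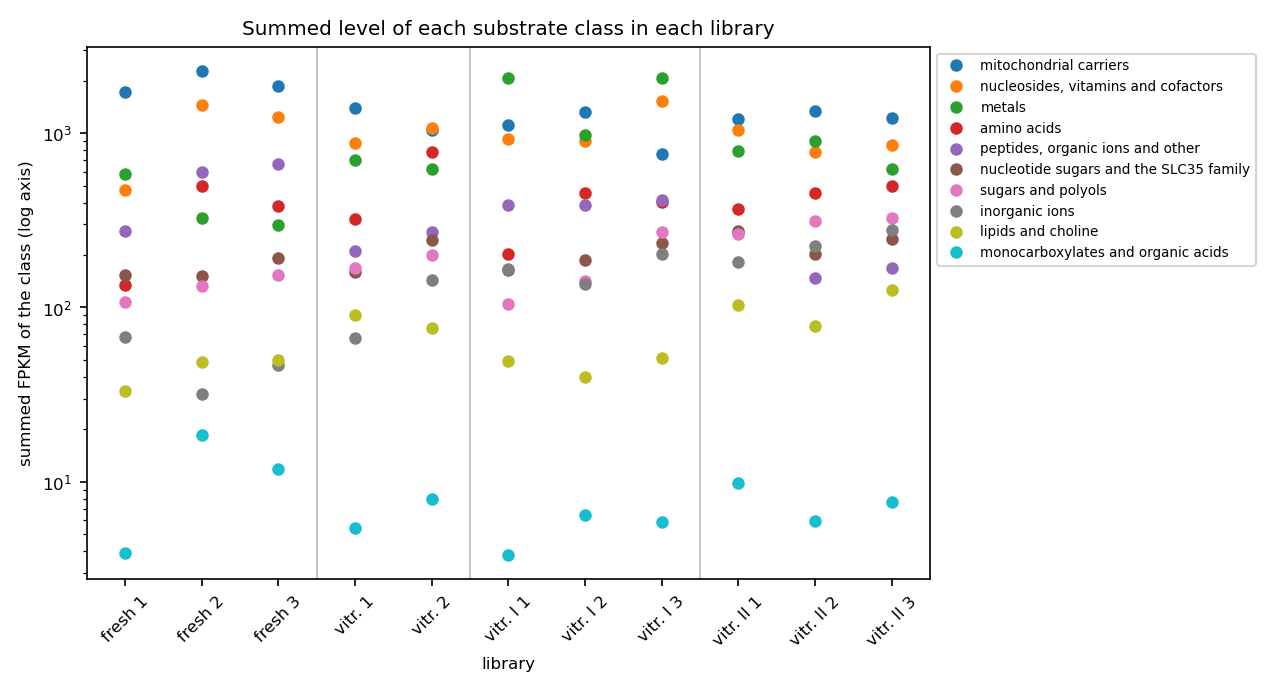
Summed FPKM of each substrate class (log axis) in each of the 11 libraries, 1 point per class, with grey lines between the groups. Mitochondrial carriers lead in fresh control, and metal carriers lead in vitrification I libraries 1 and 3, at 2075 and 2063.

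Differences were fitted on log2(FPKM + 1) with limma over all 9411 detected genes and called at an adjusted p under 0.05. The median gene itself moved, by 0.19 log2 after vitrification, -0.06 in vitrification I and 0.62 after vitrification II against fresh control, and by 0.68 in vitrification II against vitrification I. Log2 changes below are therefore given relative to that median, as value ± SE, and the calls rest on the unshifted fit. The adjusted p-values are those of limma with Benjamini-Hochberg adjustment over all genes tested. The 3 comparisons with fresh control share the same control libraries.

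Against fresh control, vitrification had 1 member called, with a background of 1.37% of all genes. At an unadjusted p under 0.05 there were 34 members (21.1%), against 18.2% of all genes. The number of members called at an adjusted p under 0.05 was 0 without fresh control replicate 2 or with only the 2 groups fitted, with 0% of all genes called in each. It was 2 without fresh control replicate 1 or vitrification I replicate 3, with 0.946% and 2.06% of all genes called. Leaving out a vitrification library left 1 in that group, and counts from those fits are not given. Vitrification I had 44 members called (27.3%), 25 higher and 19 lower, against 18.6% of all genes, 8.85% higher and 9.77% lower. The count was 19 without fresh control replicate 2, 19 without fresh control replicate 3 and 22 without vitrification I replicate 1. Of all genes, 8.85%, 9.73% and 10.9% were called in these fits. The share called is above that of all genes, and the median member moved by 0.09 relative to the median gene.

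Vitrification II had 41 members called against fresh control (25.5%), 38 higher and 3 lower, with 25.7% of all genes called, 24.6% higher and 1.09% lower. The members' shares are close to those of all genes. This split depends on scaling. After quantile normalization 11 members were called, 2 higher and 9 lower (7.18% of all genes called). After rescaling to the non-mitochondrial total 24 were, 21 higher and 3 lower (13.9% of all genes). The count of members was 17 without fresh control replicate 2, 25 without fresh control replicate 3 and 26 without vitrification II replicate 3. Of all genes, 10.7%, 13.1% and 15.6% were called in these fits. Vitrification II against vitrification I had 59 members called (36.6%), 49 higher and 10 lower, with a background of 38.4%, 34.7% higher and 3.75% lower. Here quantile normalization gave 48, 18 higher and 30 lower, and rescaling to the non-mitochondrial total 42, 23 higher and 19 lower. These scalings called 28.1% and 24% of all genes. For vitrification I against fresh control the same scalings gave 44 (28 higher, 16 lower) and 44 (37 higher, 7 lower), with 22.3% and 19.6% of all genes. A test across the 4 groups called 75 members (46.6%) against 42.7% of all genes. In 8 of the 44, 5 of the 41 and 13 of the 59 called members, the lower group was under an FPKM of 1 in each of its libraries, so these entered the list through the other groups. Among those described below are SLC2A8, SLC2A13 and SLC39A14 in vitrification I against fresh control. SLC2A8, SLC43A3 and SLC47A1 are such members in vitrification II against vitrification I. For all of these the detection rule itself favours a difference, and their p-values are given as description only. Members whose libraries did not overlap between the 2 groups numbered 52 higher and 14 lower in vitrification (25.5% and 11.5% of all genes), and 42 and 29 in vitrification I (17.3% and 18.9%). There were 73 higher and 7 lower in vitrification II against fresh control (44.0% and 3.41%), and 55 and 19 against vitrification I (42.6% and 7.07%). The counts by class below have the shares of all genes called higher and lower as their background.

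**Figure D2:**
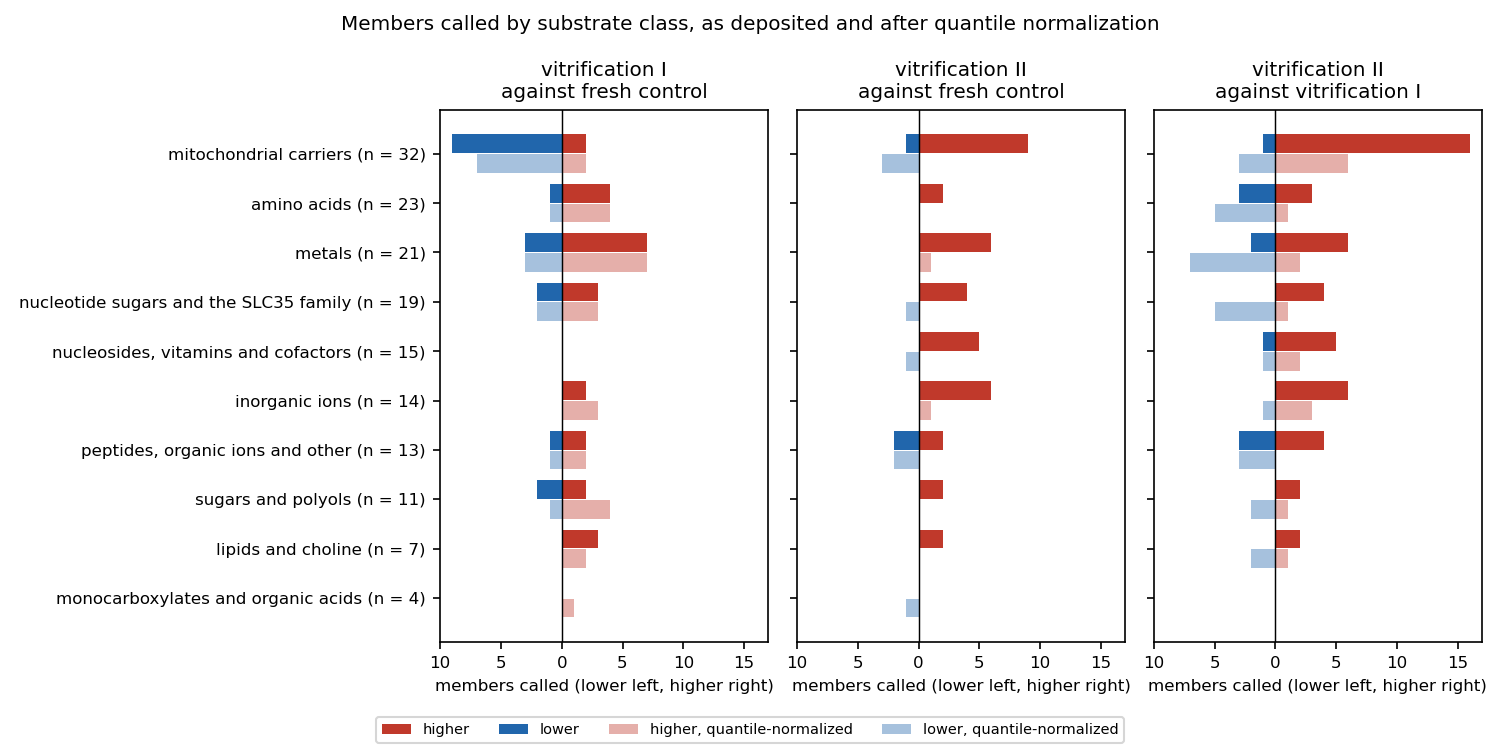
Members called lower (left) and higher (right) in each substrate class for 3 comparisons, with dark bars for the values as deposited and pale bars after quantile normalization. In vitrification I 9 of 32 mitochondrial carriers were called lower (7 after quantile normalization), while for vitrification II against fresh control the 9 called higher drop to 0.

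Among the sugar carriers, SLC2A1, a widely expressed glucose carrier of the plasma membrane, separated the groups most. It stood at 37.5, 53.7 and 91.9 in the controls, 78.3 and 61.2 after vitrification, 8.1, 15 and 18.7 in vitrification I and 142, 142 and 173 after vitrification II. Each vitrification I library lay below every library of the other groups, and each vitrification II library lay above them. SLC2A1 fell by 1.97 ± 0.39 in vitrification I (adjusted p = 0.00359) and was higher in vitrification II than in vitrification I by 2.74 ± 0.39 (adjusted p = 4.09e-05). Both calls held under every alternative tried. Its rise in vitrification II over fresh control, by 0.77 ± 0.39 (adjusted p = 0.0192), was lost in 5 alternatives, with adjusted p 0.0544 to 0.0913. They were quantile normalization, no filter on low values, and leaving out fresh control replicate 1, fresh control replicate 2 or vitrification II replicate 3.

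SLC2A2, the glucose carrier of liver and pancreatic islets, was high in the same range but followed another order. It stood at 44.5, 40.4 and 27.4 in fresh control, 54.8 and 78.7 after vitrification, 55.8, 79.2 and 197 in vitrification I and 68, 125 and 87.7 after vitrification II. Its rises in vitrification I (by 1.42 ± 0.44, adjusted p = 0.043) and vitrification II (by 0.66 ± 0.44, adjusted p = 0.0438) ended in most alternatives, among them leaving out fresh control replicate 2 (adjusted p = 0.091 and 0.097) or replicate 3 (0.157 for each). SLC2A13, a myo-inositol carrier, rose in vitrification I by 1.86 ± 0.43 (adjusted p = 0.011; 0.0642 with no filter), from 0.834, 0.829 and 0.642 to 3.27, 3.46 and 11.2. SLC2A8, an intracellular hexose carrier, was at 0, 0.0856 and 0.477 in vitrification I against 0.663, 2.31 and 1.92 in fresh control (adjusted p = 0.0354). That call was lost in 9 alternatives (adjusted p 0.0511 to 0.155), among them quantile normalization and leaving out fresh control replicate 2, fresh control replicate 3, vitrification I replicate 1 or vitrification I replicate 2. In all, 4 of 11 sugar and polyol carriers were called in vitrification I, 2 higher and 2 lower, and 2 higher in vitrification II. Without fresh control replicate 2 or 3, 1 was called higher and 1 lower in vitrification I.

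**Figure D3:**
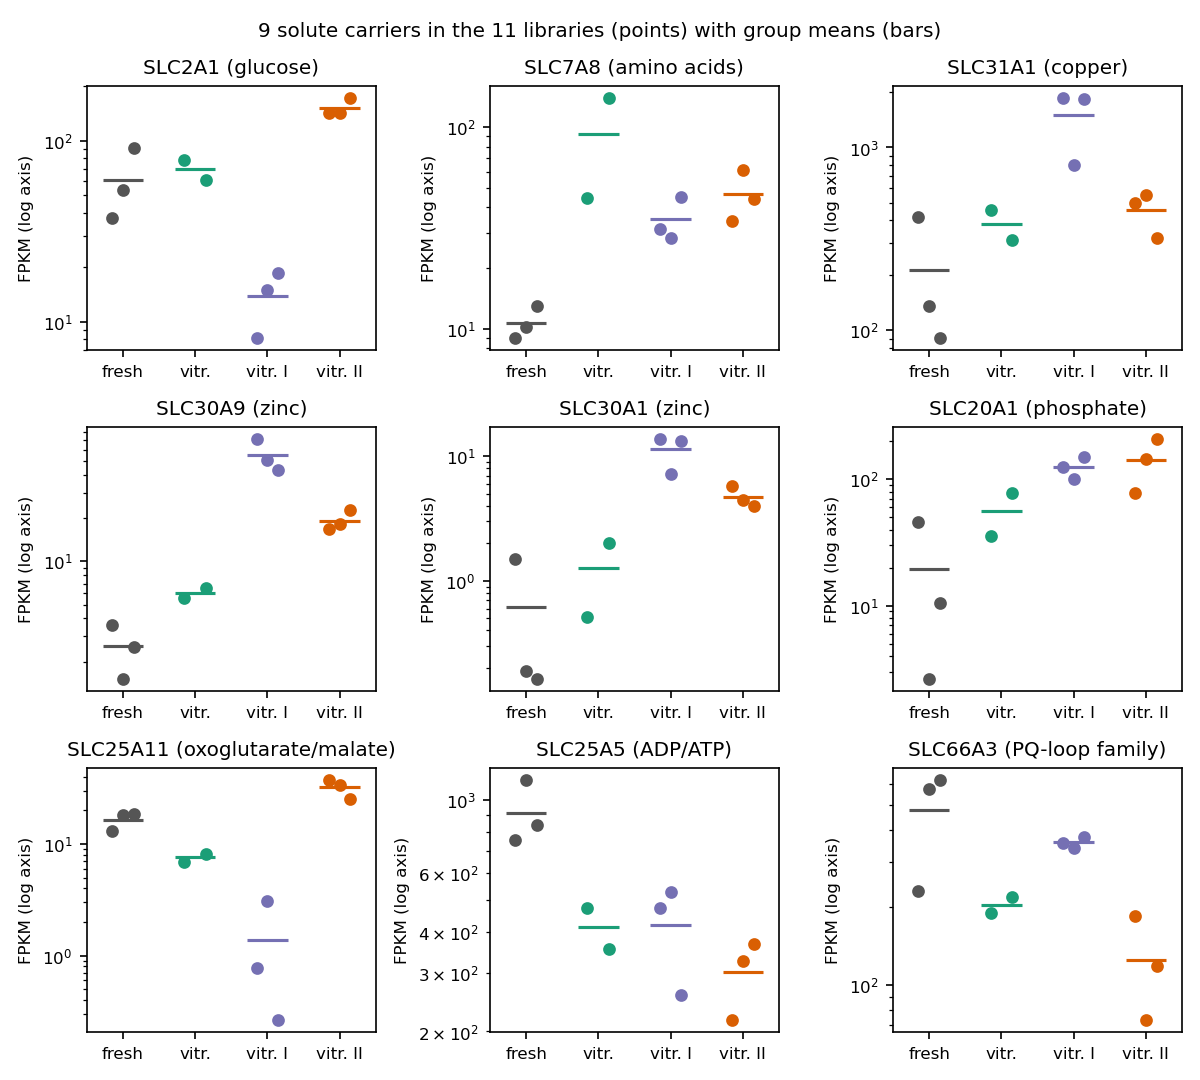
FPKM (log axis) of 9 members in each library (points) with group means (bars), for fresh control, vitrification (vitr.), vitrification I and vitrification II. SLC2A1 and SLC25A11 are lowest in the 3 vitrification I libraries and highest in the 3 vitrification II libraries, and SLC30A9 is highest in vitrification I.

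The amino acid carriers held the 1 member called in vitrification. SLC7A8, a light chain that pairs with SLC3A2 to exchange neutral amino acids, was at 8.97, 10.2 and 13 in fresh control, 44.7 and 139 after vitrification, 31.3, 28.3 and 45.2 in vitrification I and 34.2, 61.5 and 44 after vitrification II. Each of the 8 vitrified libraries lay above all 3 controls. It also rose in vitrification I, by 1.67 ± 0.42 (adjusted p = 0.0165), and in vitrification II, by 1.37 ± 0.42 (adjusted p = 0.00452). In vitrification its call (adjusted p = 0.0174) was lost without fresh control replicate 2 (0.0789), without vitrification replicate 2 (0.304) and with only the 2 groups fitted (0.0718). In vitrification I it was lost without fresh control replicate 2 (0.0578), without vitrification I replicate 3 (0.0552) and with no filter on low values (0.0756). In vitrification II only quantile normalization ended it (0.101).

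The partner SLC3A2 ranged from 26.9, 117 and 110.4 in fresh control to 84.4, 215 and 121 in vitrification II with overlapping groups, and passed no test. SLC7A5, the other large neutral amino acid light chain, was at 3.14, 6.31 and 3.85, 9.46 and 12.4, 1.4, 3.13 and 1.92 and 12.2, 2.03 and 5.63 in fresh control, vitrification, vitrification I and vitrification II. Only the test across the 4 groups called it (adjusted p = 0.0434). The creatine carrier SLC6A8 likewise passed only that test (adjusted p = 0.0132), with 86.2 and 286 in vitrification against 16.6, 39.8 and 79.1 in fresh control. SLC1A5, a glutamine carrier, and SLC6A9, a glycine carrier, passed no test, and SLC1A5 was at 0.0232, 7.78 and 7.55 within fresh control alone.

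SLC7A7, a light chain that exports cationic amino acids, was at 19.3, 32.4 and 25.5 in fresh control and 3.89, 8.44 and 9.51 in vitrification I. It fell there by 1.67 ± 0.40 (adjusted p = 0.00899), a call kept under every alternative tried. A pair of lysosomal carriers diverged. SLC38A9, which senses arginine in the lysosome, was at 5.15, 2.84 and 4.17 in fresh control, 27.7, 9.24 and 14.4 in vitrification I and 6.81, 3.34 and 2.92 in vitrification II. Vitrification II lay below vitrification I by 2.38 ± 0.44 (adjusted p = 0.00747) under every alternative. Its rise in vitrification I (by 1.80 ± 0.44, adjusted p = 0.0136) was lost without fresh control replicate 2 (0.0644) or vitrification I replicate 1 (0.0667) and with no filter (0.0665). SLC38A7, which exports glutamine from the lysosome, was at 0.679, 2.37 and 2.95 in vitrification I and 12, 12.7 and 17 in vitrification II, a difference of 1.71 ± 0.40 (adjusted p = 0.000476) kept under every alternative. SLC1A4, a carrier of alanine and serine, was lower in vitrification II (2.2, 0 and 0.084) than in vitrification I (6.05, 10.2 and 5.4, adjusted p = 0.00626; 0.0667 with no filter).

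Over the 23 amino acid carriers, 4 rose and 1 fell in vitrification I, and 2 rose in vitrification II. Against vitrification I, 3 were higher and 3 lower in vitrification II, or 1 higher and 5 lower under quantile normalization. Without fresh control replicate 2 the vitrification I counts were 0 and 1, and without fresh control replicate 3, vitrification I replicate 1 or replicate 3 they were 2 and 1. SLC7A9 and SLC3A1 together form the exchanger whose loss causes cystinuria. SLC7A9 had the widest spread of all members with a mean of at least 5, from 0 to 109.8, and varied within each group, as in vitrification I at 1.78, 109.8 and 0. SLC3A1 was at 3.97, 14.5 and 0.0318 in vitrification I and 9.54, 33.8 and 45.2 in vitrification II.

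Of the 21 metal carriers, 7 were called higher and 3 lower in vitrification I, against 8.85% and 9.77% of all genes. Their median change was 1.10 relative to the median gene, against 0.09 for all members and 1.05 for the lipid and choline carriers. After rescaling to the non-mitochondrial total these carriers lay above the metal carriers, at 1.14 against 1.11. On that scale 10 metal carriers were higher and 1 lower. Unscaled and without fresh control replicate 2, fresh control replicate 3 or vitrification I replicate 1, 4 were called higher and 0 lower. In vitrification II their median change was 0.17, and 6 were called higher and 0 lower, a share near the 24.6% of all genes called higher, with 3 higher when fresh control replicate 2, fresh control replicate 3 or vitrification II replicate 2 was left out and 1 after quantile normalization. SLC30A9, a zinc carrier of mitochondria, had the smallest p of any member for vitrification I against fresh control. It stood at 3.62, 1.51 and 2.55 in the controls, 5.51 and 6.48 after vitrification, 71, 50.7 and 43.1 in vitrification I and 16.7, 18.1 and 22.8 after vitrification II. No libraries of different groups overlapped. Vitrification II exceeded fresh control by 1.92 ± 0.36 (adjusted p = 0.000466) and lay below vitrification I by 2.13 ± 0.36 (adjusted p = 0.0056), and both calls held under every alternative.

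SLC30A1, the zinc exporter of the plasma membrane, had the next largest rise within the SLC30 family. It was at 1.5, 0.19 and 0.162 in fresh control, 0.512 and 2.03 after vitrification, 13.8, 7.24 and 13.2 in vitrification I and 5.75, 4.46 and 4 after vitrification II. The rise in vitrification I, by 3.05 ± 0.42 (adjusted p = 0.000542), held under every alternative, and that in vitrification II, by 1.29 ± 0.42 (adjusted p = 0.00542), ended under quantile normalization (0.0871). SLC30A5, which loads zinc into the secretory pathway, rose in vitrification I by 2.33 ± 0.47 (adjusted p = 0.0051), from 3.44, 1.87 and 4.06 to 24.2, 11.7 and 21.4, also under every alternative. SLC30A7, a zinc carrier of the Golgi, rose by 1.30 ± 0.38 (adjusted p = 0.0346), a call lost in 8 alternatives. SLC30A3, the zinc carrier of synaptic vesicles, went the other way, from 1.7, 7.58 and 5.19 in fresh control to 1.05, 1.43 and 0 in vitrification I (adjusted p = 0.046). That call was lost in 11 alternatives, with adjusted p 0.0506 to 0.21. Vitrification II lay above vitrification I for SLC30A3 at 5.93, 5.87 and 21.2 (adjusted p = 0.00191), under every alternative. The SLC30 family thus had 4 of 7 members called higher and 1 lower in vitrification I, or 3 and 0 without fresh control replicate 2, fresh control replicate 3, vitrification I replicate 1 or vitrification I replicate 3.

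The SLC39 family, which brings zinc into the cytosol, was divided. SLC39A1, a zinc importer of the plasma membrane, was at 17.3, 40.9 and 33.9 in fresh control, 5.06, 8.59 and 15.1 in vitrification I and 64.2, 82.1 and 61.3 in vitrification II. Each library of vitrification I was below, and each of vitrification II above, all 3 controls. The difference between vitrification II and vitrification I, 2.15 ± 0.41 (adjusted p = 0.000203), held under every alternative. Its fall in vitrification I (adjusted p = 0.0152) and rise in vitrification II (adjusted p = 0.0422) did not, with adjusted p 0.0513 to 0.0774 and 0.0526 to 0.375 where lost. SLC39A4, the importer that takes up dietary zinc in the gut, fell in vitrification I from 20.6, 41.3 and 51.9 to 3.56, 14.2 and 8.35 (by 2.01 ± 0.52, adjusted p = 0.0131). Its call ended without fresh control replicate 2 (0.0518), fresh control replicate 3 (0.0602) or vitrification I replicate 1 (0.0653), and with no filter (0.0926). SLC39A10, a further zinc importer, was at 2.87, 0.686 and 2.19 in fresh control, 8.36, 5.99 and 2.74 in vitrification I and 9.82, 13 and 37 in vitrification II, and rose in vitrification II by 2.08 ± 0.55 (adjusted p = 0.00394; 0.0521 under quantile normalization). SLC39A14, which also carries iron and manganese, was called higher in vitrification I (adjusted p = 0.0491) and lost the call without any 1 of 7 libraries, with no filter (0.252) and with a replicate block (0.0535). Of 9 SLC39 members, 1 was higher and 2 lower in vitrification I, and 3 were higher in vitrification II (0 under quantile normalization).

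**Figure D4:**
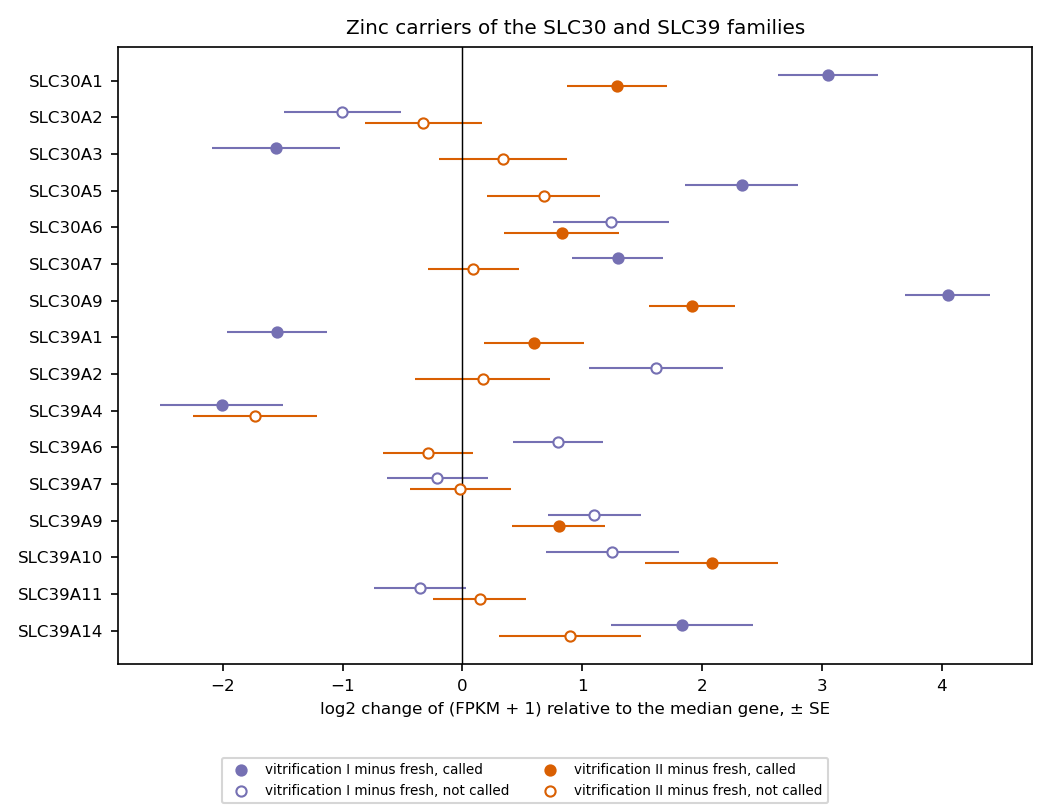
Log2 change of (FPKM + 1) relative to the median gene (± SE) for the 7 SLC30 and 9 SLC39 zinc carriers, in vitrification I (purple) and vitrification II (orange) against fresh control, which both share; filled points were called. SLC30A9 and SLC30A1 lie farthest right in vitrification I, at 4.05 and 3.05, and SLC39A4 farthest left at -2.01. The filled orange points other than SLC30A9 are not called after quantile normalization.

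Copper, iron and magnesium carriers were few. SLC31A1, the plasma membrane copper importer, was among the most abundant members, at 417, 135 and 90.3 in fresh control, 455 and 313 after vitrification, 1864, 799 and 1833 in vitrification I and 497, 551 and 318 after vitrification II. All 3 vitrification I libraries lay above all others. The rise over fresh control was 3.08 ± 0.50 (adjusted p = 0.00147) and held under every alternative. The lower level in vitrification II than in vitrification I (2.34 ± 0.50, adjusted p = 0.0183) was lost without vitrification I replicate 1 (0.0725), vitrification I replicate 3 (0.0697) or vitrification II replicate 3 (0.0716), and with no filter (0.119). Its relative SLC31A2, of intracellular membranes, was at 8.97, 8.93 and 40.6 in vitrification I and 48.5, 83 and 33.4 in vitrification II, with overlapping libraries. The iron exporter SLC40A1 was at 9.73, 0.56 and 0.407 in fresh control, where 1 library stood apart, and passed no test.

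The mitochondrial carriers were the largest class, 32 members of the SLC25 family, and more of their calls in vitrification I were lower than higher. There 9 were lower and 2 higher, against 9.77% lower and 8.85% higher for all genes. Without fresh control replicate 2 these counts were 6 and 1, without fresh control replicate 3 they were 5 and 0, without vitrification I replicate 1 they were 6 and 0, and without vitrification I replicate 3 they were 5 and 2. After rescaling to the non-mitochondrial total they were 4 and 2. The median member changed by -0.25 relative to the median gene in vitrification I and by 0.13 in vitrification II. These carriers are encoded in the nucleus. The share of mitochondrially encoded messages moved the other way, to 55.7 ± 10.6% in vitrification I from 39.9 ± 3.44% in fresh control, and its part in these differences was not tested.

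SLC25A11, which exchanges oxoglutarate for malate across the inner membrane, fell most. It was at 12.9, 18 and 18.7 in fresh control, 6.95 and 8.19 after vitrification, 0.782, 3.08 and 0.263 in vitrification I and 37.3, 33.8 and 25.2 after vitrification II. The 4 groups did not overlap. The fall in vitrification I was 2.98 ± 0.42 (adjusted p = 0.000502), and vitrification II exceeded vitrification I by 3.28 ± 0.42 (adjusted p = 3.01e-05), the largest difference of any member in that comparison. Both held under every alternative, while vitrification II and fresh control were not called apart (adjusted p = 0.117, difference 0.29 ± 0.42). SLC25A20, which imports acylcarnitines for fatty acid oxidation, followed the same order at 13.3, 9.73 and 15.5 in fresh control, 1.29, 5.49 and 1.52 in vitrification I and 27.1, 21.6 and 13.8 in vitrification II. It fell by 1.96 ± 0.43 in vitrification I (adjusted p = 0.0057), under every alternative. SLC25A38, a glycine carrier needed for haem synthesis, fell by 1.56 ± 0.37 (adjusted p = 0.00899) from 5.31, 3.66 and 2.82 to 0.471, 1.21 and 0.192, also under every alternative.

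Further falls in vitrification I were less stable. The citrate carrier SLC25A1 went from 35.4, 40.3 and 45 to 5.78, 21.5 and 6.9 (by 1.88 ± 0.44, adjusted p = 0.00826; 0.052 with no filter). SLC25A39, which brings glutathione into mitochondria, went from 11.4, 8.64 and 16.9 to 2.68, 5.3 and 2.04 (adjusted p = 0.0149, lost without fresh control replicate 3 at 0.0768, without vitrification I replicate 1 at 0.0524, without vitrification I replicate 3 at 0.0522, with no filter at 0.0642 and on the non-mitochondrial scale at 0.0581). SLC25A44, a branched-chain amino acid carrier, went from 7.93, 8.71 and 9.17 to 2.12, 3.31 and 2.1 (adjusted p = 0.0117, 0.0512 without fresh control replicate 3 and 0.0569 on the non-mitochondrial scale). All 3 were higher in vitrification II than in vitrification I, with adjusted p = 0.0104, 0.000428 and 0.000108, and for SLC25A1 this ended without vitrification I replicate 1 (0.0542), with no filter (0.0546) and under both rescalings (0.134 and 0.0702). SLC25A33 and SLC25A26, carriers of pyrimidine nucleotides and of S-adenosylmethionine, were the other members called lower besides SLC25A5, and each lost its call in 4 or more alternatives.

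The ADP/ATP exchanger SLC25A5 was lower in the vitrified groups. It was at 758, 1148 and 841 in fresh control, 471 and 355 after vitrification, 471, 529 and 258 in vitrification I and 216, 327 and 368 after vitrification II. All 8 vitrified libraries lay below all 3 controls. In vitrification II it fell by 2.22 ± 0.36 (adjusted p = 0.00641) under every alternative. In vitrification I it fell by 1.10 ± 0.36 (adjusted p = 0.0353), a call lost in 8 alternatives (adjusted p 0.0648 to 0.187), and in vitrification the adjusted p was 0.145. Reads of near-identical ADP/ATP exchanger copies can be split between genes, and how the counting treated them is not given in the sources used here. SLC25A4, the heart and muscle form, was far lower at 8.72, 5.3 and 7.32 in fresh control and passed no test. SLC25A3 was among the most even members, from 393 to 917 over the 11 libraries, and passed no test.

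In vitrification II 9 mitochondrial carriers were called higher than in fresh control and 1, SLC25A5, lower. After quantile normalization 0 were higher and 3 lower, and without fresh control replicate 2 there were 2 higher. Without fresh control replicate 3 or vitrification II replicate 3 there were 5 higher. SLC25A36, a pyrimidine nucleotide carrier, rose by 1.52 ± 0.54 (adjusted p = 0.0108), from 12.1, 3.04 and 5.55 to 43.6, 24.4 and 25.6, and lost the call without fresh control replicate 2 (0.0617), with no filter (0.0776) and under quantile normalization (0.134). SLC25A32, which brings flavin and folate into mitochondria, was at 1.32, 1.13 and 1.3 in fresh control and 6.3, 5.51 and 5.71 in vitrification II (adjusted p = 0.00299; 0.116 under quantile normalization). Against vitrification I, 16 were higher and 1 lower in vitrification II (6 and 3 after quantile normalization). The 1 lower, SLC25A43, was at 38.5, 28.3 and 26.6 in vitrification I and 16.1, 6.19 and 8.19 in vitrification II, a difference of 2.29 ± 0.39 (adjusted p = 0.00509) kept under every alternative.

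**Figure D5:**
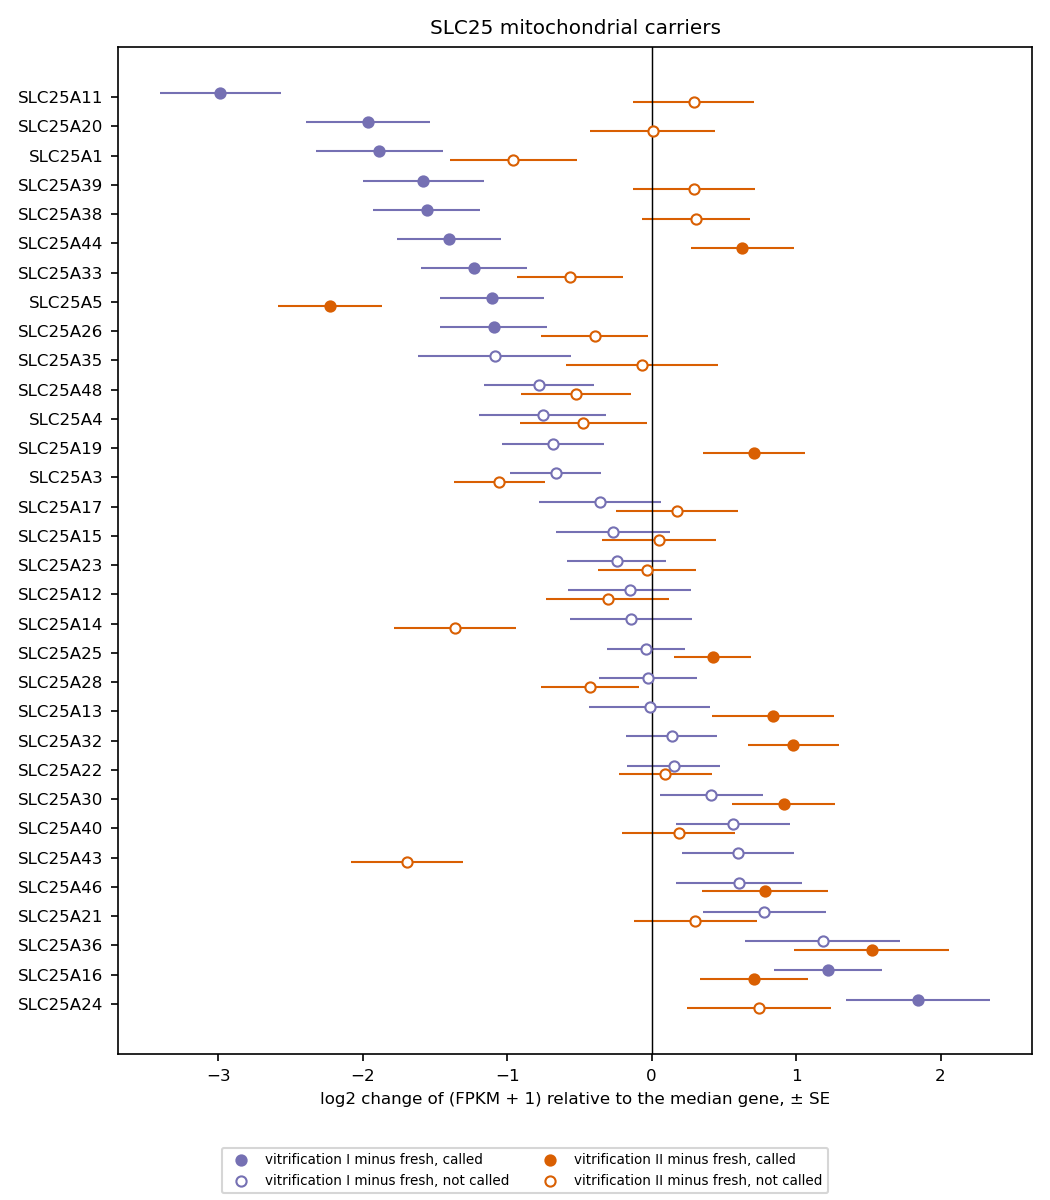
Log2 change of (FPKM + 1) relative to the median gene (± SE) for the 32 mitochondrial carriers in vitrification I (purple) and vitrification II (orange) against fresh control, which both share; filled points were called. In vitrification I SLC25A11 lies farthest left at -2.98, and in vitrification II SLC25A5 at -2.22. The filled orange points to the right of 0 are not called after quantile normalization.

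Among the inorganic ion carriers, SLC20A1, a sodium-phosphate cotransporter of the plasma membrane, rose with vitrification I and vitrification II. It was at 45.6, 2.61 and 10.5 in fresh control, 35.3 and 77.5 after vitrification, 125, 101 and 151 in vitrification I and 77.6, 145 and 209 after vitrification II. The controls spread widely, and all libraries of vitrification I and vitrification II lay above them. The rise in vitrification II was 2.80 ± 0.68 (adjusted p = 0.00324), under every alternative. That in vitrification I was 3.39 ± 0.68 (adjusted p = 0.0047; 0.0687 with no filter). SLC26A11, a sulfate and chloride carrier, was at 1.67, 2.45 and 2.82 in fresh control, 4.28 and 4.79 after vitrification, 0.921, 1.31 and 1.97 in vitrification I and 10.2, 16.3 and 10.8 after vitrification II. Vitrification II exceeded vitrification I by 1.80 ± 0.35 (adjusted p = 0.000156) under every alternative, and fresh control by 1.39 ± 0.35 (adjusted p = 0.0015; 0.0813 under quantile normalization). SLC12A4, a potassium-chloride cotransporter that lets swollen cells shed salt, had the same order, with 1.65, 1.44 and 3.79 in vitrification I and 13.1, 16.3 and 10.8 in vitrification II (adjusted p = 0.000452 between them).

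SLC12A2, the sodium-potassium-chloride cotransporter that brings salt into cells, was near the detection level and called only by the test across groups (adjusted p = 0.0447), with 1.03 and 5.13 in vitrification. Over the 14 ion carriers, 2 were called higher in vitrification I and 6 in vitrification II (1 after quantile normalization, 3 without fresh control replicate 2 or 3). None of the 14 was called lower against fresh control in these fits. The sodium-proton exchanger SLC9A3 was at 0 in every library, and the anion exchanger SLC4A2 reached 1.65 in 1 library. Neither belongs to the 161.

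Nucleoside and vitamin carriers included the highest member of all. SLC28A3, which concentrates nucleosides with sodium, was at 294, 1249 and 1042 in fresh control, 723 and 837 after vitrification, 778, 709.9 and 1277 in vitrification I and 693, 538 and 602 after vitrification II. The groups overlapped and no test called it. SLC29A1, an equilibrative nucleoside carrier, did differ, at 6.13, 14 and 13.4, 20.2 and 41, 4.53, 7.46 and 6.37 and 29.9, 34 and 43.1 in the same order of groups. Vitrification II exceeded vitrification I by 1.69 ± 0.40 (adjusted p = 0.000508) under every alternative, and fresh control by 1.03 ± 0.40 (adjusted p = 0.0094; 0.179 under quantile normalization). SLC43A3, a purine base carrier, was at 0.328, 0.694 and 0 in vitrification I and 12.8, 5.2 and 4.61 in vitrification II (adjusted p = 0.000379), also under every alternative. All its vitrification I values were under the detection limit, so it met the detection rule through the other groups.

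SLC33A1, which carries acetyl-CoA into the ER, went the other way. It was at 9.84, 17 and 20.5 in fresh control, 19.5 and 26.9 after vitrification, 27.4, 28 and 37.7 in vitrification I and 11.3, 6.29 and 7.11 after vitrification II. Vitrification II lay below vitrification I by 2.50 ± 0.37 (adjusted p = 0.00177), and the call held under every alternative. The thiamine carriers differed in level and in change. SLC19A3 was high at 99.5, 85.6 and 83.8 in fresh control and passed no test, while SLC19A2 rose in vitrification II from 3.13, 2.52 and 2.77 to 8.96, 12.4 and 13.5 (adjusted p = 0.00449; 0.205 under quantile normalization). SLC5A6, which takes up biotin and pantothenate, rose there from 1.33, 1.46 and 3.47 to 12, 6.88 and 9.56 (adjusted p = 0.00507; 0.131 under quantile normalization). SLC46A3, a lysosomal carrier, was the most even member with a mean of at least 5, from 3.85 to 9.06. Of 15 members in this class, 0 were called in vitrification I and 5, all higher, in vitrification II (3 without vitrification II replicate 1; after quantile normalization 0 higher and 1 lower).

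Of the 19 members of the SLC35 family, 3 were higher and 2 lower in vitrification I. These counts were 1 and 0 without fresh control replicate 2 or 3, 2 and 0 without vitrification I replicate 1, and 1 and 2 without vitrification I replicate 3. In vitrification II 4 were higher and 0 lower, or 0 and 1 after quantile normalization. Without fresh control replicate 2 or vitrification II replicate 3, 1 of these was called, and without fresh control replicate 3 or vitrification II replicate 1, 2 were. SLC35A3, which carries UDP-N-acetylglucosamine into the Golgi, was at 1.08, 1.17 and 1.07 in fresh control and 6.68, 3.67 and 5.26 in vitrification I, a rise of 1.59 ± 0.36 (adjusted p = 0.0104) kept under every alternative. SLC35A4 was at 8.91, 12.4 and 11.8 in fresh control, 1.21, 5.65 and 3.64 in vitrification I and 29.1, 27.2 and 22.8 in vitrification II. The difference between vitrification II and vitrification I, 2.05 ± 0.41 (adjusted p = 0.000234), held under every alternative, and neither call against fresh control did. SLC35C2 was at 0.0936, 4.89 and 3.08 in vitrification I against 9.17, 7.86 and 12.9 in fresh control (adjusted p = 0.0277, lost in 6 alternatives, among them without fresh control replicate 2 or 3 or vitrification I replicate 1, at 0.0578, 0.0991 and 0.121). The 2 highest members, SLC35F5 and SLC35B1, passed no test. SLC35B1, which brings ATP into the ER, was among the most even members, from 31.4 to 70.5.

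Lipid and choline carriers numbered 7, of which 3 were called higher in vitrification I and 2 higher in vitrification II (0 after quantile normalization). SLC44A1, a choline carrier, was at 1.33, 0.829 and 0.718 in fresh control, 9.07, 4.66 and 4.73 in vitrification I and 3.53, 2.77 and 4.16 in vitrification II. Its rise in vitrification I was 1.89 ± 0.39 (adjusted p = 0.00594), under every alternative. SLC5A7, the high-affinity choline carrier of cholinergic neurons, rose in vitrification II from 15.4, 3.46 and 3.77 to 16.5, 25.2 and 58.6 (by 1.47 ± 0.61, adjusted p = 0.0212). That call was lost without fresh control replicate 2 (0.0976), fresh control replicate 3 (0.0826) or vitrification II replicate 3 (0.0962), with no filter (0.137) and under quantile normalization (0.231). SLC27A4, which takes up and activates long-chain fatty acids, was at 6.69, 31.5 and 34.9 in fresh control, 3.31, 6.76 and 9.01 in vitrification I and 63.7, 31.6 and 38.6 in vitrification II. Vitrification II exceeded vitrification I by 1.97 ± 0.54 (adjusted p = 0.00169) under every alternative, and in fresh control 1 library lay with vitrification I.

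Monocarboxylate and organic acid carriers had 4 members, a count without SLC16A1, which was not analysed here. In the main fit 0 of them were called by limma in any comparison. After quantile normalization 1 was called higher in vitrification I and 1 lower in vitrification II, each against fresh control. The highest, the citrate carrier SLC13A5, was at 1.84, 12.7 and 8.34 in fresh control. The lactate exporter SLC16A3 was at 0 in every library. Within the class of peptide, organic ion and other carriers, SLC66A3 was the most abundant, at 231, 575 and 622 in fresh control, 189.6 and 219.7 after vitrification, 355, 339.8 and 375 in vitrification I and 185, 72.8 and 118 after vitrification II. Each vitrification II library lay below every library of the other groups. It fell in vitrification II by 2.51 ± 0.42 against fresh control (adjusted p = 0.00573) and by 2.28 ± 0.42 against vitrification I (adjusted p = 0.00785), both under every alternative. SLC17A5, which exports sialic acid from the lysosome, rose in vitrification I from 4.49, 1.05 and 2.14 to 11.2, 10.3 and 15.1 (by 2.05 ± 0.46, adjusted p = 0.0088; 0.0543 with no filter). In vitrification II it was at 6.62, 15.3 and 9.24 (adjusted p = 0.0141), a call lost in 5 alternatives (adjusted p 0.0514 to 0.247), among them leaving out fresh control replicate 2 or vitrification II replicate 2. Over the 13 members of this class, 2 were higher and 1 lower in vitrification I, and 2 higher and 2 lower in vitrification II. The latter counts were 0 and 1 without fresh control replicate 2 or vitrification II replicate 2, and 0 and 2 after quantile normalization.

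The 2 genes that are SLC members in name only behaved unlike each other. SLC7A6OS is named as the opposite strand gene of SLC7A6. The counting is not stated to use strand, and without it reads from any stretch where the 2 genes overlap cannot be told apart. It was at 20.5, 14.4 and 19.2 in fresh control, 2.78, 9.39 and 5.45 in vitrification I and 29.8, 32.7 and 16 in vitrification II (adjusted p = 0.00262 between the last 2). SLC4A1AP, an adaptor protein, was among the 5 most even members, from 4.22 to 14.6. At the edge of the rule, SLC16A10, SLC12A9 and SLC25A28 had an FPKM of 1.01, 1.03 and 1.05 in the library that ranked number 3 and were kept. SLC12A8, SLC16A6 and SLC5A1, at 0.987, 0.946 and 0.938, were not.

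Of 41 symbols of other solute transport genes listed for comparison, with NHERF1 and NHERF2 also under their older symbols, 28 were detected. In vitrification I 4 of these were higher and 3 lower, with 8.85% and 9.77% of all genes so called. In vitrification II 8 were higher and 0 lower, a share near the 24.6% of all genes called higher, and in vitrification 0 were called. After quantile normalization TXNIP and ARRDC4 were the only ones of the 8 that kept the call in vitrification II. The phosphate exporter XPR1 rose in vitrification I, from 1.37, 0.357 and 0.627 to 6.72, 7.34 and 14.6 (by 2.59 ± 0.39, adjusted p = 0.000921). SPNS1, a lysosomal lysophospholipid carrier, fell there from 20.3, 38.5 and 41.7 to 3.28, 5.12 and 2.57 (by 2.80 ± 0.39, adjusted p = 0.000468). NHERF1, a scaffold that anchors carriers at the apical membrane, was at 121, 348 and 418 in fresh control and 37.1, 76.3 and 52.6 in vitrification I (adjusted p = 0.00367). These 3 calls held under every alternative tried.

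Of 8 regulators of carriers, all detected, 5 were called higher in vitrification II than in fresh control (24.6% of all genes) and 5 higher than in vitrification I (34.7%). After quantile normalization TXNIP and ARRDC4 kept both calls, while MTF1, NFAT5 and ARRDC3 lost both. TXNIP, an arrestin-like protein that removes glucose carriers from the cell surface, was at 2.06, 2.56 and 2.63 in fresh control, 3.16 and 7.31 after vitrification, 1.92, 2.33 and 1.37 in vitrification I and 30.0, 20.1 and 40.1 after vitrification II. Its relative ARRDC4 was at 1.25, 0.0996 and 0.239, 0.332 and 0.621, 0.863, 0.344 and 0 and 11.8, 7.95 and 8.51. In both genes the vitrification II libraries lay above all others. TXNIP rose by 2.51 ± 0.38 (adjusted p = 0.000239) and ARRDC4 also rose (adjusted p = 0.0003), under every alternative, quantile normalization included. Vitrification II also exceeded vitrification I, by 2.71 ± 0.38 for TXNIP (adjusted p = 3.66e-05) and 2.24 ± 0.36 for ARRDC4 (adjusted p = 7.71e-05). The zinc-sensing transcription factor MTF1 was at 1.21, 1.4 and 1.2 in fresh control, 1.17, 2.16 and 1.09 in vitrification I and 4.66, 4.64 and 3.88 in vitrification II (adjusted p = 0.0118 for vitrification II against fresh control). That call ended under quantile normalization (0.394) and without fresh control replicate 3 (0.0523). MTF1 in vitrification I was not called (adjusted p = 0.864), and any link between MTF1 and the zinc carriers was not tested.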

How the data were processed

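RNA was measured in pig blastocysts from 4 groups of 3 samples. The table held 11 libraries, and the remaining vitrification library was not analysed here, which leaves 2 in a group planned with 3. The deposited values are FPKM made by the authors. TopHat2 2.0.13 and Cufflinks 2.2.1 are named, per the submitters' processing notes, without their settings, and the genome build is not given in the sources used here. Depth is unknown, since no counts are given, and precision rests on the number of libraries. Low values showed no steps of whole reads, so no count test was run. No libraries were identical (0 pairs).

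Groups come from the sample titles, with no batch or date among the labels. Values were taken as log2(FPKM + 1) for the 9411 genes that reached an FPKM of 1 in 3 or more libraries. This scale understates the change of low genes. limma 3.58.1 in R 4.3.3 was fitted with 1 mean per group over all 11 libraries and a mean-dependent prior (trend), two-sided. P-values were adjusted after Benjamini and Hochberg over all 9411 genes and called under 0.05. The script was tested on simulated data. Alternatives were a pseudocount of 0.1, no filter, quantile normalization, rescaling to the non-mitochondrial total, a block on replicate number, leaving out each library, and, added after seeing the data, fits of 2 groups only.

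The members and lists, substrate classes included, were chosen with earlier results of these data known. Named were, per comparison, up to 8 called rises and 8 called falls with a higher group's mean FPKM of 5 or more and no overlap, the 10 highest members, the highest member of each class and the one with the smallest p of the test across groups, the 5 most and 5 least even members, 3 on each side of the detection limit, and a set list. Of that list SLC2A3, SLC16A1, SLC25A6, SLC11A2 and SLC19A1 were not analysed here. Other members were named after their values were seen. No sequences or coordinates are given.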

Additional observations from a re-analysis of the deposited data

Results flagged for a closer look

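In 4 members the vitrified groups moved to opposite sides of fresh control, and limma called them lower in vitrification I and higher in vitrification II. Of all genes, 9.77% were called lower in vitrification I and 24.6% higher in vitrification II. How many genes had both calls was not counted, so whether carriers stand out here is not known. Since these 4 members were picked for their opposite calls, the differences between vitrification II and vitrification I are a description and carry no test here. Before any shift by the median gene, the glucose carrier SLC2A1 was higher in vitrification II than in vitrification I by 3.43 log2. The zinc importer SLC39A1 was higher by 2.83, SLC35A4 by 2.73 and the branched-chain amino acid carrier SLC25A44 by 2.72. In each gene all 3 vitrification I libraries lay below, and all 3 vitrification II libraries above, every control. The median of all genes differed by 0.68 in the same direction. The fall in vitrification I was lost in 6 alternatives for SLC39A1, 6 for SLC35A4, 2 for SLC25A44 and 0 for SLC2A1. The rise in vitrification II was lost in 12, 10, 6 and 5 alternatives for the same genes, and for none of the 4 was it called after quantile normalization (adjusted p = 0.375, 0.508, 0.431 and 0.0913). The mitochondrial share, 55.7% in vitrification I and 19.6% in vitrification II, and the summed trophectoderm markers differ between the same libraries, and their part was not tested.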

How the results depend on the processing

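Counts of called members moved with the processing, and the cause was not tested. With no filter on low values vitrification had 2 members called, vitrification I 16 and vitrification II 22 against fresh control. There were 37 between vitrification II and vitrification I, and 38 by the test across groups. Of all genes, 2.71%, 3.74%, 5.86%, 10.6% and 12.8% were called, in the same order. Quantile normalization gave 2 in vitrification (1.04% of all genes) and 11 in vitrification II (7.18%), and rescaling to the non-mitochondrial total gave 24 in vitrification II (13.9%). These scalings moved the median gene in vitrification II against fresh control from 0.62 to -0.03 and 0.50. Fits of 2 groups only, added after seeing the data, gave 0 in vitrification (0% of all genes). Leaving out 1 library gave 0 to 4 for vitrification, 19 to 47 for vitrification I, 17 to 50 for vitrification II, 41 to 61 between vitrification II and vitrification I, and 53 to 79 across groups. Where that left vitrification with 1 library, it was assumed to vary like the other groups. The shares of all genes moved as well. With 1 library left out, 8.85% to 21.6% of all genes were called for vitrification I and 10.7% to 28.9% for vitrification II. The share was 28.5% to 41.2% between vitrification II and vitrification I, and 31.5% to 45.7% across groups. For vitrification it was 0% to 2.06% where 2 of its libraries were kept. Libraries with the same number showed no clear shared deviation (correlations of -0.158 to 0.143 over 15 pairs, 2 of them above 0.1). Deviations from means of so few libraries are tied to each other, so this check cannot decide whether the numbers mark a pairing. A replicate block gave 1, 39, 41, 61 and 69 called members for the same 5 tests, with 0.584%, 17%, 23.4%, 37% and 39.8% of all genes. Of the 70 log2 changes of the 59 named members that were called, 0 reversed under any alternative. They were picked as called, so a reversal was unlikely beforehand, and many of these calls were lost under some alternatives. FPKM without counts limits what can be said of members near an FPKM of 1.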

Other observations

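Listing at 0 was uneven between libraries. Of the 161 members, 13 were at 0 in vitrification I replicate 3 and 7 in vitrification I replicate 1, against 0 to 3 in each of the other 9 libraries. SLC10A7, a carrier related to bile acid carriers, was at 21.4, 0.882 and 14.4 in the vitrification I libraries and 1.22, 0.477 and 1.32 in the controls, so that 1 of the 3 vitrification I libraries lay within the controls although the member was called (adjusted p = 0.0364 by limma, lost in 9 alternatives with adjusted p 0.0502 to 0.22, among them quantile normalization and leaving out any 1 of the controls, vitrification I replicate 1 or vitrification I replicate 3). SLC47A1, an exporter of organic cations, was at 0.0346, 0 and 0 in vitrification II and 0.879, 3.41 and 1.9 in vitrification I.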
